A study of Astyanax mexicanus with 78 samples.

Results

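The genes described here are the 80 whose muscle level differed most between aged and young fish, in the same direction, in both populations of the Mexican tetra Astyanax mexicanus, the Pachón cavefish and the surface fish. Counts were scaled to CPM (1e+06 times the count over the library total) and taken as log2(CPM + 1). The members were chosen by these values in muscle. For each gene the difference d was the mean of the 4 aged minus the mean of the 4 young muscle libraries of 1 population. Of 19076 genes counted, 8101 had a mean of at least 5 CPM over the 16 muscle libraries, and 5049 of these had d of the same sign in both populations, 692 above 0 and 4357 below 0. The 80 with the largest value of the smaller absolute d were kept, 13 of which were higher in aged muscle of both populations (the rises) and 67 lower (the falls). Since d in muscle chose them, their age differences in muscle are given as a description with no test, and the members were tested with age only in heart and the other tissues, and between the populations in muscle.

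The study sequenced poly(A) RNA of 5 tissues to set transcription in aged fish against that in young fish, in a cave population that sleeps little and in its surface relative. Its 78 libraries fall into 20 groups, and muscle and heart each have aged cavefish (7 to 8 years), young cavefish (about 1 year), aged surface fish (7 to 8 years) and young surface fish (about 1 year), with 4 libraries per group. The labels give these laboratory fish no transgene, deletion or treatment. Aged cave brain and aged surface gut have 3 libraries, and the replicate numbers below are 1 to 4 for young and 5 to 8 for aged libraries. Tissue came from several fish per group, but the labels do not tie each library to 1 fish, so that p-values measure only the spread between these libraries. In bulk tissue, fewer cells of a type and less RNA per cell cannot be told apart.

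Muscle libraries held 7418866 to 16151012 counts and heart libraries 7294274 to 13256561. Genes at least 16 times higher in 1 tissue than in each other tissue (mean of at least 100 CPM) took 17.8 to 32.5% of the counts of each muscle library. In 15 of the 16 heart libraries the heart-specific genes took 5.99 to 17.5%, but in cave young heart 1 they took 0.00191% and liver-specific genes took 78.7%. Values for cavefish heart are therefore given with and without this library. Liver-specific genes took up to 16.4% of counts in the other heart libraries, with the highest in surface aged 8 and cave aged 7 (11.4%), and their part in the heart results was not tested. The aged cave hearts carry the word young in 1 label field and aged in another and were grouped as aged. The sources also conflict on the age of cave young liver 4, whose count column names no age. It was kept as young by its label.

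Muscle is the main protein store of the body. In fasting or disuse its proteins are broken down by the proteasome, after tagging by muscle ubiquitin ligases such as atrogin-1 (fbxo32) and MuRF1 (trim63a), and by autophagy, which the kinase ULK1 starts. Transporters of neutral amino acids carry the products across the cell membrane, and heat shock proteins of the Hsp70 and DnaJ families refold damaged proteins. Gene symbols could be matched to 12 of the 80 members, and the other 68 are named by their Ensembl identifiers.

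Among the rises, d had a median of 1.39 in cavefish (range 1.18 to 4.76) and 1.81 in surface fish (range 1.2 to 5.3). Among the falls the median was -1.37 in cavefish (range -2.43 to -1.18) and -1.54 in surface fish (range -5.03 to -1.19). Cavefish had the smaller absolute d in 9 of 13 rises and 50 of 67 falls. Aged and young libraries did not overlap in cavefish for 5 rises and 28 falls, in surface fish for 8 rises and 40 falls, and in both populations for 2 rises and 17 falls. Over the 8101 genes, all aged libraries lay above all young ones for 1.11% in cavefish, 2.8% in surface fish and 0.0617% in both, and below them for 9.83%, 5.21% and 1.25%, and since d chose the members nothing is read from their counts. The last 2 members inside the threshold were ENSAMXG00000031922 (1.18 in cavefish and 1.48 in surface fish) and ENSAMXG00000003689 (-1.18 in cavefish and -1.32 in surface fish). The first 2 genes outside were ENSAMXG00000032934 (-1.79 in cavefish and -1.18 in surface fish) and ENSAMXG00000043820 (-1.18 in cavefish and -1.22 in surface fish).

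**Figure D1:**
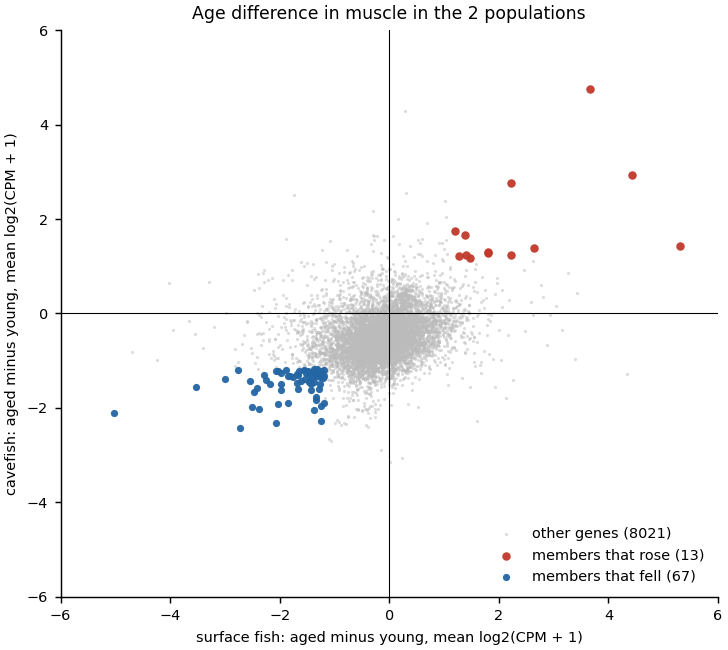
Age difference in muscle, d, as mean log2(CPM + 1) of aged minus young libraries, in cavefish (vertical axis) and surface fish (horizontal axis). Each point is 1 of the 8101 genes with a mean of at least 5 CPM, the 13 rises lie in the upper right corner and the 67 falls in the lower left, and the median of all genes was -0.52 in cavefish and -0.13 in surface fish.

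The predominance of falls went with a shift of all genes. In CPM the median d of the 8101 genes was -0.52 in cavefish and -0.13 in surface fish, and 85.5% of genes were below 0 in cavefish against 59.7% in surface fish. After scaling by TMM, which sets library totals by the bulk of genes, both medians were -0.06. The 20 most abundant genes took 32.8 to 53.0% of counts in aged and 27.2 to 43.6% in young cave muscle, and 45.0 to 55.6% in aged and 45.1 to 54.4% in young surface muscle, and the part of this share in d was not tested. All 80 members kept their sign in both populations under TMM, where the median d of the rises was 1.85 in cavefish and 1.88 in surface fish and that of the falls -0.94 in cavefish and -1.49 in surface fish. The same rule on TMM-scaled values chose 49 rises and 31 falls, and 38 of the present 80 were among them, 13 rises and 25 falls. Overlap of the ages, above and below, was judged in CPM and was not examined after TMM scaling. The TMM factors were 1.13 to 1.78 in young and 0.71 to 1.39 in aged cave muscle.

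As a description of the same contrast on the scale of mean counts, the median DESeq2 log2 fold change of the falls was -0.87 in cavefish and -1.61 in surface fish, and that of the rises was 2.17 in cavefish and 2.04 in surface fish.

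The 2 rises with the largest smaller difference have no symbol. ENSAMXG00000010192 had 26.9, 39, 27 and 40.3 CPM in aged cavefish, against 0.0934, 0.0868, 0.76 and 0.135 CPM in young cavefish, and 8.3, 48.8, 19.6 and 16.2 CPM in aged surface fish, against 1.11, 0.35, 0.783 and 0.25 CPM in young surface fish. No young library exceeded 1.11 CPM and every aged library was higher than that, with d of 4.76 in cavefish and 3.66 in surface fish. ENSAMXG00000020572 had 1489.9, 741, 983 and 167 CPM in aged cavefish, against 53.9, 32.9, 206 and 136 CPM in young cavefish, and 1356, 2348, 1436 and 347 CPM in aged surface fish, against 30.8, 68.5, 55 and 57.6 CPM in young surface fish. In surface fish its groups did not overlap, and in cavefish aged 8 lay within the young range (d 2.94 in cavefish and 4.44 in surface fish). ENSAMXG00000013414 came next, with 3.66, 11.8, 11.8 and 7.68 CPM in aged cavefish, against 0, 0.868, 0.435 and 0.135 CPM in young cavefish, and 14.5, 20.8, 4.14 and 1.97 CPM in aged surface fish, against 2.54, 0.525, 0.996 and 0 CPM in young surface fish. Its groups were apart in cavefish and overlapped in surface fish, where d was 2.23 (cavefish 2.77).

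Heat shock genes accounted for 2 of the 4 rises with a symbol. DNAJA4, a DnaJ co-chaperone of Hsp70, had 81.4, 39.8, 60.1 and 49 CPM in aged cavefish, against 20.6, 17.1, 27.3 and 25.1 CPM in young cavefish, and 64.2, 182, 87.6 and 38.3 CPM in aged surface fish, against 23, 19.5, 18.7 and 27.4 CPM in young surface fish. It was the only rise besides ENSAMXG00000010192 with no overlap in either population, at d of 1.29 in cavefish and 1.81 in surface fish. hspa1b, a stress-inducible Hsp70, had 35.8, 18.7, 92.9 and 14 CPM in aged cavefish, against 12.2, 18.8, 12.4 and 5.12 CPM in young cavefish, and 139, 107, 43.3 and 18 CPM in aged surface fish, against 7.62, 7.44, 10.4 and 8.92 CPM in young surface fish. Its groups did not overlap in surface fish, whereas in cavefish aged 6 and 8 lay within the young range. ppp1r27b, a regulatory subunit of protein phosphatase 1, had 419, 84.2, 78.4 and 7.68 CPM in aged cavefish, against 4.02, 5.12, 231 and 65.5 CPM in young cavefish, and 146, 469, 539 and 170.5 CPM in aged surface fish, against 10.1, 3.94, 4.27 and 8.24 CPM in young surface fish. All aged surface libraries were far above all young ones (d 5.3), but young cave 3 and 4 reached the level of aged cavefish and aged 8 was near the lower young libraries (d 1.42). cldn7b, a tight junction claudin, overlapped between ages in both populations, with d of 1.21 in cavefish and 1.27 in surface fish.

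The remaining rises have no symbol. Of these ENSAMXG00000032518 and ENSAMXG00000019242 had no overlap in cavefish alone, where d was 1.66 for the first and 1.74 for the second, against 1.38 and 1.2 in surface fish. ENSAMXG00000043896, ENSAMXG00000036050 and ENSAMXG00000018234 had no overlap in surface fish alone, with d of 1.8, 1.41 and 2.22.

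**Figure D2:**
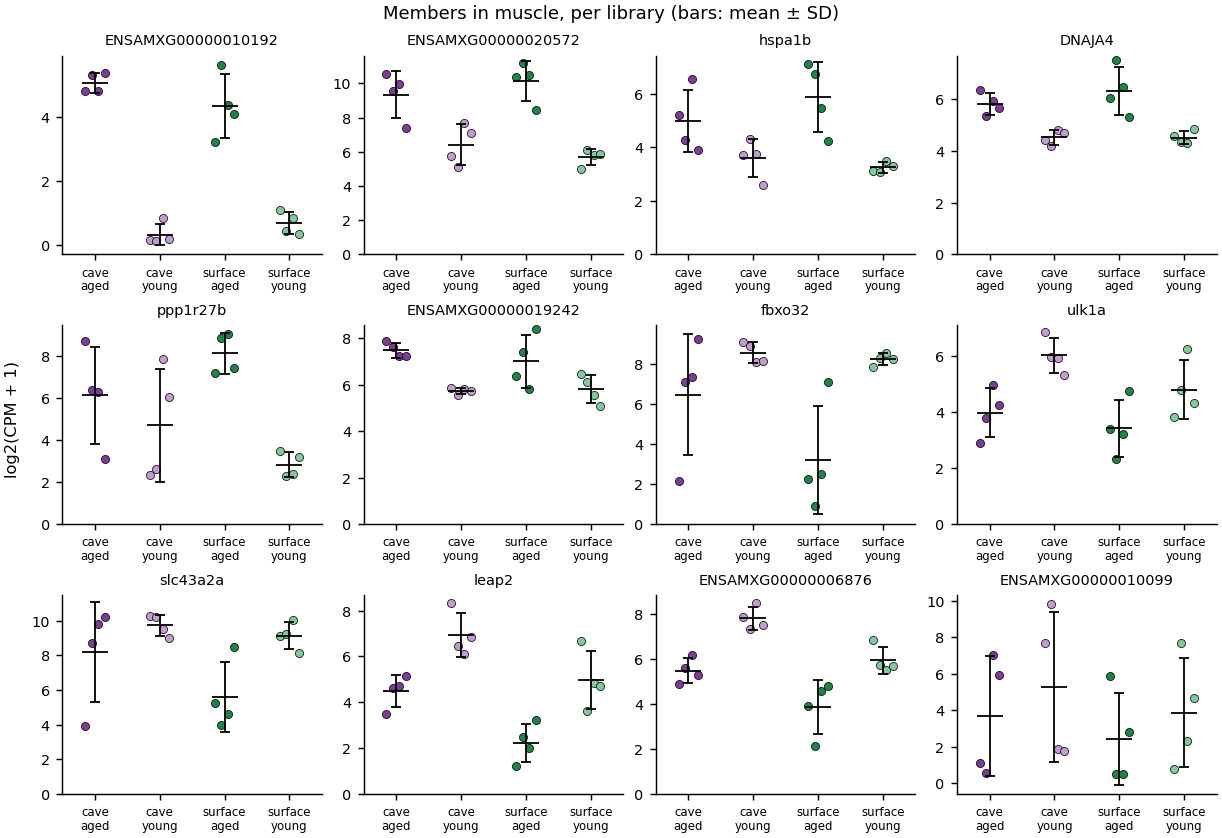
Level in muscle, as log2(CPM + 1), of members described in the text, with 1 point per library in aged cavefish, young cavefish, aged surface fish and young surface fish, and bars for the mean ± SD of 4 libraries. ENSAMXG00000010192 and DNAJA4 separate the ages in both populations, while fbxo32 separates them only in surface fish and aged cave 8 holds 594 CPM.

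Muscle protein breakdown was the only one of the 15 pathway lists examined that held members, among the 12 members with a symbol that could be matched. fbxo32, which encodes the ubiquitin ligase atrogin-1, had 3.49, 133, 159 and 594 CPM in aged cavefish, against 546, 469.8, 272 and 278 CPM in young cavefish, and 3.73, 0.854, 4.71 and 134 CPM in aged surface fish, against 224, 309, 368 and 295 CPM in young surface fish. In surface fish 3 of 4 aged libraries were below 5 CPM and aged 8 stood apart at 134 CPM, still below every young library. In cavefish aged 5 was as low but aged 8 was the highest of the 8 libraries, so that d was -2.1 in cavefish and -5.03 in surface fish. DESeq2, which models the mean count, gave -0.41 in cavefish and -3.13 in surface fish.

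ulk1a, the kinase that starts autophagy, had 6.47, 12.9, 30.7 and 18 CPM in aged cavefish, against 116, 62.2, 60 and 39.6 CPM in young cavefish, and 9.44, 4.02, 8.28 and 26 CPM in aged surface fish, against 13.3, 26.4, 75.6 and 19.2 CPM in young surface fish. Its groups did not overlap in cavefish (d -2.05) and overlapped in surface fish (d -1.38). Only 5 of the 33 names on the list were matched, 4 of them with at least 5 CPM, so the pathway is covered in part. Of the 2 that are no members, DESeq2 called trim63a lower in aged surface muscle, beside 2.26% of all genes called lower, and called neither in cavefish. trim63a, the MuRF1 ubiquitin ligase and no member, had 350.1, 1890.0, 3228 and 5145 CPM in aged cavefish, against 3113, 3067, 1506 and 1669.7 CPM in young cavefish, and 126, 137, 225 and 1399 CPM in aged surface fish, against 1854, 2761, 2394 and 3242 CPM in young surface fish. All aged surface libraries lay below all young ones, whereas aged cave 7 and 8 exceeded all young cave libraries (d -0.28 in cavefish and -3.2 in surface fish). The median DESeq2 log2 fold change of the 4 genes was 0.07 in cavefish, beside -0.13 over all genes tested, and -1.96 in surface fish, beside -0.04. Since fbxo32 and ulk1a, 2 of the 4, were chosen by their fall in these libraries, nothing is read from this median. The remaining gene, the autophagy receptor sqstm1, had d of 0.06 in cavefish and -0.66 in surface fish.

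Amino acid transporters accounted for 2 further falls. slc43a2a, a transporter of large neutral amino acids, had 14.3, 423, 899 and 1201 CPM in aged cavefish, against 1217, 1194, 717 and 512 CPM in young cavefish, and 36.5, 15, 23.6 and 359.8 CPM in aged surface fish, against 543, 591, 1055 and 283 CPM in young surface fish. As for fbxo32, aged cave 5 and 3 of the 4 aged surface libraries were the low ones, and the ages overlapped in both populations (d -1.56 in cavefish and -3.54 in surface fish). slc38a3b, a glutamine transporter, had 12.3, 26.1, 18.8 and 25.8 CPM in aged cavefish, against 63.5, 35.2, 50.6 and 47.6 CPM in young cavefish, and 10.3, 6.07, 8.57 and 26.6 CPM in aged surface fish, against 33.7, 33.4, 50.9 and 10.5 CPM in young surface fish. In CPM its ages did not overlap in cavefish, and in surface fish young 4 and aged 8 crossed (d -1.24 in cavefish and -1.27 in surface fish). Cave young 2, the lowest young library, had a TMM factor of 1.78 and cave aged 6, the highest aged one, a factor of 0.81. Whether the cave separation remains after TMM scaling was not tested.

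The largest smaller difference among the falls was that of leap2, which encodes a liver-expressed peptide known in mammals to block the ghrelin receptor. In these libraries leap2 averaged 53.9 CPM in muscle and 7.36 CPM in liver. It had 10.4, 23.9, 25 and 33.9 CPM in aged cavefish, against 316, 86.2, 68.8 and 113 CPM in young cavefish, and 1.37, 4.7, 3.07 and 8.28 CPM in aged surface fish, against 102, 11.5, 27.7 and 25.3 CPM in young surface fish. The ages did not overlap in either population (d -2.43 in cavefish and -2.72 in surface fish). plcd3a, a phospholipase C, had 3.58, 5.24, 5.83 and 8.96 CPM in aged cavefish, against 17.7, 15.6, 17.8 and 14.6 CPM in young cavefish, and 2.82, 3.33, 2.86 and 6.61 CPM in aged surface fish, against 13.2, 21.2, 8.89 and 9.99 CPM in young surface fish, again with no overlap in either (d -1.39 in cavefish and -1.54 in surface fish).

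The 2 other falls with a symbol overlapped in at least 1 population. GTPBP2, a GTP-binding protein linked in mouse to the rescue of stalled ribosomes, had 26.1, 124, 102 and 222 CPM in aged cavefish, against 229, 158, 277 and 229 CPM in young cavefish, and 29.3, 14.4, 26.6 and 144 CPM in aged surface fish, against 179, 161, 249 and 77.8 CPM in young surface fish. Aged surface 8 and young surface 4 crossed, and aged cave 8 lay within the young range (d -1.23 in cavefish and -2.07 in surface fish). tp73, a transcription factor of the p53 family, did not overlap in surface fish and overlapped in cavefish (d -1.25 in cavefish and -1.98 in surface fish).

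The falls without a symbol were described by their separation. ENSAMXG00000006876 had 28.2, 47.6, 72 and 37.6 CPM in aged cavefish, against 230.1, 160.2, 361 and 182 CPM in young cavefish, and 14.1, 3.42, 23.1 and 26.4 CPM in aged surface fish, against 112, 51.8, 44.6 and 50.3 CPM in young surface fish. Like ENSAMXG00000006863 (d -1.91 in cavefish and -2.02 in surface fish) and ENSAMXG00000018557 (d -1.48 in cavefish and -1.43 in surface fish), it was lower in every aged than in every young library of both populations. ENSAMXG00000035187, ENSAMXG00000013271, ENSAMXG00000037290, ENSAMXG00000004343 and ENSAMXG00000000329 had no overlap in surface fish, where d was -2.38, -2.48, -2.17, -1.99 and -1.68, and of these only ENSAMXG00000037290 had none in cavefish (d -1.5). ENSAMXG00000038667 and ENSAMXG00000006674 had no overlap in cavefish alone, with d of -1.59 for the first and -1.57 for the second. These separations are in CPM, and whether they remain after TMM scaling was not tested. ENSAMXG00000037633, ENSAMXG00000003860, ENSAMXG00000032943 and ENSAMXG00000030095 overlapped in both populations, although their d of -1.98 to -1.44 in cavefish and -2.51 to -1.46 in surface fish placed them among the leading falls. ENSAMXG00000030095 averaged 9.26 CPM in muscle and 1760 CPM in liver, and the part of liver content in its d was not tested.

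The members' variation within groups was described by correlation. Over the 16 muscle libraries, after taking out each group mean, the median Pearson r between pairs of falls was 0.5, that between rises was 0.15 and that between a rise and a fall was -0.15, beside 0.29 for pairs among all 8101 genes. The libraries share the depth and composition differences given above, and r is a description. Some falls formed a tight group, chosen here after their values were seen. ENSAMXG00000010099 had 1.19, 0.476, 128 and 59.5 CPM in aged cavefish, against 200.3, 883, 2.61 and 2.43 CPM in young cavefish, and 56.4, 0.427, 0.428 and 6.11 CPM in aged surface fish, against 0.743, 201, 3.98 and 24 CPM in young surface fish. It was high in cave young 1 and 2, cave aged 7 and 8, surface young 2 and surface aged 5, and within 0.427 to 24.0 CPM in the other 10 libraries, whatever their age. ENSAMXG00000025717 followed it with r of 0.98 within groups over the 16 libraries, ENSAMXG00000030367 with 0.95, ENSAMXG00000037071 with 0.94, ENSAMXG00000037702 with 0.93 and ENSAMXG00000008734 with 0.91.

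**Figure D3:**
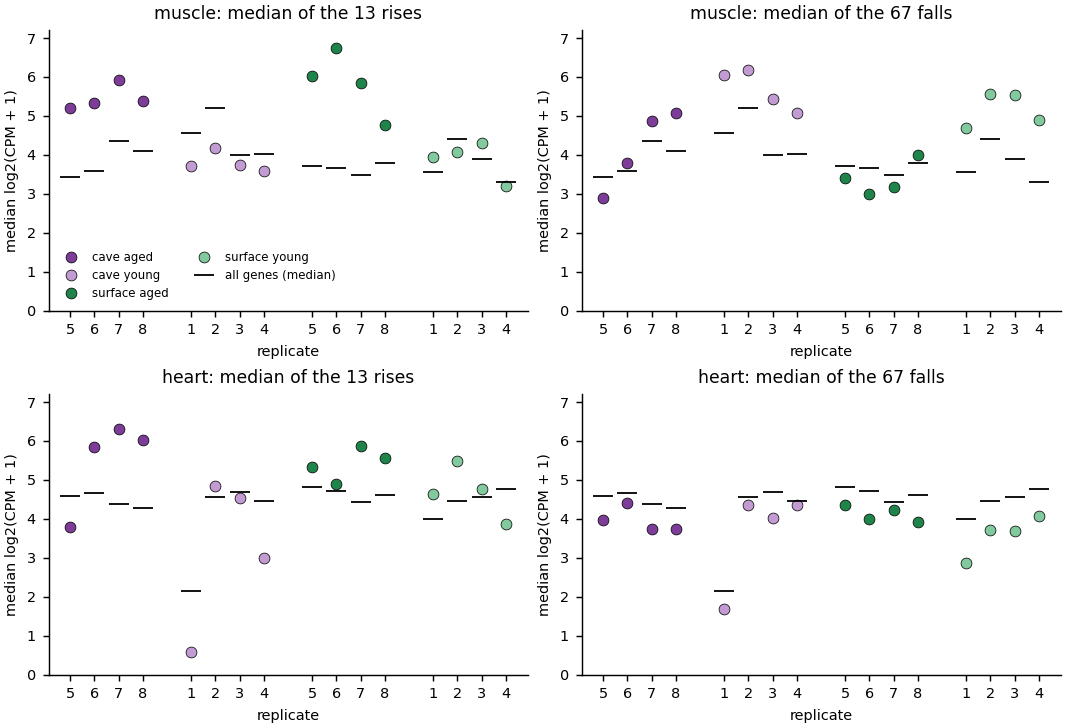
Median log2(CPM + 1) of the 13 rises and of the 67 falls in each muscle and heart library, with libraries in the order aged cavefish, young cavefish, aged surface fish and young surface fish and dashes for the median over every gene that averages 5 CPM or more in that tissue. In muscle the falls had medians of 2.88 to 5.07 in aged and 5.08 to 6.17 in young cavefish, and in heart the median of the falls was 1.68 in cave young 1.

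The members were also placed by the tissue in which their mean CPM was highest. Of the 67 falls, 26 (38.8%) were highest in muscle and 26 in brain, beside 14.2% in muscle and 51.7% in brain over all 8101 genes. Of the 13 rises, 6 were highest in heart, 3 in muscle, 3 in gut and 1 in brain, beside 22.4% in heart over all genes. A mean of at least 1 CPM was reached in heart by all 13 rises and by 60 of the 67 falls.

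Heart was the tissue in which the members' age difference was to be followed, and its values took no part in their choice. The labels do not say whether heart and muscle libraries came from the same fish. Of 11 adipocyte marker names 3 were matched, and their summed level was 162 to 301 CPM in aged and 98.1 to 137 CPM in young surface hearts, and 78.1 to 208 CPM in aged and 103 to 393 CPM in young cave hearts. The surface groups did not overlap, and the part of these markers in the surface heart results was not tested. In cavefish 3 rises were higher in aged heart by DESeq2, ENSAMXG00000010192, ENSAMXG00000020572 and hspa1b, and no fall was called in either direction (4 had an unadjusted p under 0.05), beside 0.148% of all tested genes called higher and 0.0221% called lower. Without cave young 1, 5 rises were called higher, with ENSAMXG00000013414 and DNAJA4 added, and 1 fall, plcd3a, was called lower, beside 0.39% called higher and 0.267% called lower over all genes. In surface fish 1 rise, ENSAMXG00000010192, and 1 fall, ENSAMXG00000037290, were higher in aged heart, and 1 fall, ENSAMXG00000030367, was lower, beside 1.67% of all genes called higher and 1.17% called lower. An adjusted p was given for all 13 rises in both populations and for 52 falls in cavefish (56 without cave young 1) and 62 in surface fish. edgeR's quasi-likelihood test called 0 members in cavefish, with and without cave young 1, where it called 0% of all genes with all 8 libraries and 8 members (4 rises and 4 falls) had an unadjusted p under 0.05 (10 without cave young 1). In surface fish edgeR called 1 member, ENSAMXG00000030367, beside 0.161% of all genes. By DESeq2 1 of the members was called in cavefish without cave aged 6, 7 or 8, 5 were called without cave young 2, and in surface fish 6 were called without surface young 4 and 5 without surface aged 8. The share of all genes called in these fits is not given, so a change in the members cannot be told from one over all genes.

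Over the whole list, the median DESeq2 log2 fold change of the rises in heart was 0.95 in cavefish (1.23 without cave young 1), beside -0.05 (0.00) over all genes, and 0.69 in surface fish, beside -0.00. That of the falls was -0.11 in cavefish (-0.1 without cave young 1) and -0.03 in surface fish. Of the 13 rises 9 had a fold change above 0 in cavefish (11 without cave young 1) and 9 in surface fish. Of the falls, 39 of 66 with a fitted value were below 0 in cavefish (42 without cave young 1) and 34 of 67 in surface fish. By the difference of mean log2(CPM + 1), 29 members moved in heart as in muscle in cavefish, 52 without cave young 1, and 35 in surface fish. The median of all genes on that scale was 0.5 in cavefish, -0.06 without cave young 1 and 0.14 in surface fish, and against that median 54, 49 and 42 members moved as in muscle.

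**Figure D4:**
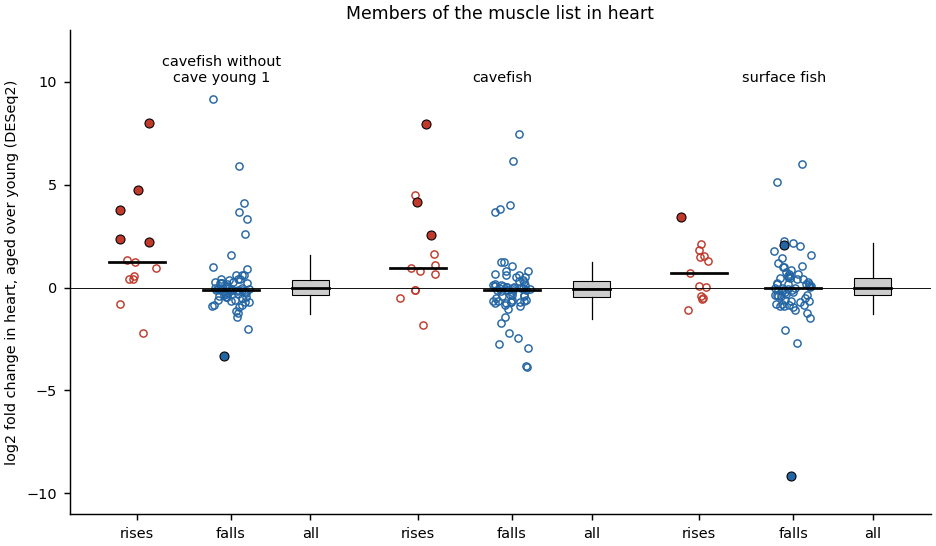
DESeq2 log2 fold change in heart, aged over young, of the 13 rises and the 67 falls in cavefish without cave young 1, in all cavefish libraries and in surface fish, with open circles for members not called, filled circles for those with an adjusted p under 0.05 and thick bars for medians. Grey boxes give the quartiles of all tested genes with lines to the 5th and 95th percentiles, and the median of the rises was 1.23, 0.95 and 0.69 while the medians of the falls lay between -0.11 and -0.03.

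ENSAMXG00000010192 was called higher in aged heart of both populations. It had 3.92, 29.2, 31.8 and 13.8 CPM in aged cavefish, against 0, 0, 0 and 0.254 CPM in young cavefish, and 4.91, 22.2, 2.36 and 0.83 CPM in aged surface fish, against 0, 0.537, 1.29 and 0.777 CPM in young surface fish. The 4 young cave hearts held 2 counts in all against 792 in the aged hearts, a ratio of CPM of 400 (95% counting interval 110 to 3308), or 273 (75.2 to 2254) without cave young 1. Aged and young did not overlap in cavefish, whereas aged 8 lay within the young range in surface fish. The log2 fold change in surface fish was 3.42 ± 1.00 (SE, adjusted p = 0.0316) by DESeq2.

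ENSAMXG00000020572 had 159, 394, 224 and 191 CPM in aged cavefish, against 1.19, 53.5, 72.1 and 39.2 CPM in young cavefish, and 246, 393, 238 and 149 CPM in aged surface fish, against 216, 419, 323 and 252 CPM in young surface fish. In cavefish the ages did not overlap, with or without cave young 1, and the log2 fold change was 2.54 ± 0.63 (SE, adjusted p = 0.0414) with it and 2.2 ± 0.38 (SE, adjusted p = 1.52e-05) without it by DESeq2. In surface fish it was -0.41 ± 0.36 (SE, adjusted p = 0.695) by DESeq2. The difference between the populations, tested as a population by age interaction in DESeq2, was 2.94 ± 0.71 on the log2 scale (SE, adjusted p = 0.00791) and 2.61 ± 0.5 (adjusted p = 2.24e-04) without cave young 1.

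Of the heat shock members, hspa1b was higher in aged cave heart, and DNAJA4 only without cave young 1. hspa1b had 12.8, 69.2, 78.2 and 135 CPM in aged cavefish, against 0, 6.89, 6.66 and 4.7 CPM in young cavefish, and 7.89, 28.5, 184 and 46.2 CPM in aged surface fish, against 23.8, 32.3, 29 and 23.2 CPM in young surface fish. The cave groups did not overlap and the surface groups did, with surface aged 7 the highest library of all. By DESeq2 the log2 fold change was 4.14 ± 0.94 (SE, adjusted p = 0.012) in cavefish, 3.76 ± 0.69 (SE, adjusted p = 6.54e-05) without cave young 1 and 1.3 ± 0.8 (SE, adjusted p = 0.48) in surface fish. DNAJA4 had 29.8, 153, 78.1 and 64 CPM in aged cavefish, against 51.5, 25.7, 13.2 and 10.4 CPM in young cavefish, and 39.5, 106, 70.4 and 79.1 CPM in aged surface fish, against 50.5, 77.4, 64.9 and 58.4 CPM in young surface fish. Cave young 1 was the highest of the young cave hearts, and without it the cave groups did not overlap. The call rested on its removal, since the DESeq2 log2 fold change was 2.36 ± 0.56 (SE, adjusted p = 0.00942) without it, -0.11 ± 1.07 (SE, adjusted p = 0.992) with it and 0.09 ± 0.39 (SE, adjusted p = 0.967) in surface fish. For neither gene did the interaction pass the threshold.

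ENSAMXG00000013414 had 0.653, 8.44, 31.8 and 6.17 CPM in aged cavefish, against 0.17, 1.33, 0 and 0.127 CPM in young cavefish, and 6.2, 5.51, 0.726 and 0.226 CPM in aged surface fish, against 0.515, 0, 1.99 and 0.444 CPM in young surface fish. The ages overlapped in both populations, since cave aged 5 and surface aged 7 and 8 were as low as young hearts. By DESeq2 the log2 fold change was 4.75 ± 1.26 (SE, adjusted p = 0.0351) in cavefish without cave young 1, 4.48 ± 1.3 (SE, adjusted p = 0.127) with it and 1.83 ± 1.13 (SE, adjusted p = 0.479) in surface fish.

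The list of immediate early and stress genes, of which 20 of 53 names were matched with at least 5 CPM in muscle, held no member. The heat shock members hspa1b and DNAJA4 are not among its names, so stress genes are not absent from the members. DESeq2 called 5 of the 20 higher and 0 lower in aged surface heart, beside 1.67% of all genes called higher and 1.17% lower. The median log2 fold change of the 20 there was 1.36, beside -0.00 over all genes tested. The summed level of the adipocyte markers was also higher in every aged than in every young surface heart, and their part in this was not tested. The 5 were fosab, junbb, jund, socs3a and NR4A1, with log2 fold changes of 5.16, 2.7, 2.44, 3.55 and 3.64. In cavefish heart 0 of the 20 were called, beside 0.148% of all genes called higher and 0.0221% lower, and the median was 0.51. Without cave young 1 nr4a3 was called higher (3.25), beside 0.39% of all genes, and the median was 0.33. In muscle 1 was called, fosab in surface fish (log2 fold change 2.22), beside 2.22% of all genes called higher there. The medians in muscle were 0.75 in cavefish and 0.41 in surface fish. The chaperone hspa8, on the same list, had log2 fold changes of -0.56 in cavefish heart (0.07 without cave young 1) and -0.46 in surface heart.

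**Figure D5:**
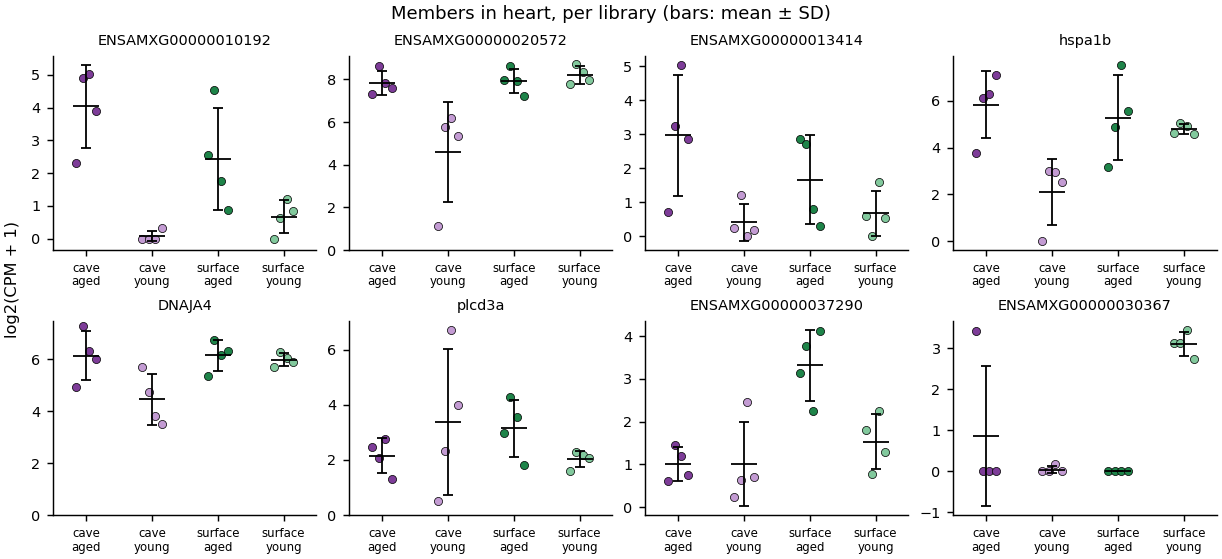
Level in heart, as log2(CPM + 1), of the 8 members called with age there, with 1 point per library in aged cavefish, young cavefish, aged surface fish and young surface fish and bars for the mean ± SD of 4 libraries. ENSAMXG00000010192, ENSAMXG00000020572 and hspa1b are higher in every aged than in every young cave heart, and ENSAMXG00000030367 is at 0 in the 4 aged surface hearts and at 5.66 to 9.95 CPM in the young ones.

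The falls called in heart did not share a direction. plcd3a had 4.57, 3.18, 5.79 and 1.51 CPM in aged cavefish, against 0.426, 4, 104 and 14.7 CPM in young cavefish, and 6.84, 18.2, 10.6 and 2.49 CPM in aged surface fish, against 2.06, 3.85, 3.48 and 3.22 CPM in young surface fish. Cave young 3 was far above the other hearts, and the ages overlapped in both populations. Its DESeq2 log2 fold change was -3.32 ± 0.89 (SE, adjusted p = 0.038) in cavefish without cave young 1, -2.94 ± 1.06 (SE, adjusted p = 0.34) with it and 1.45 ± 0.58 (SE, adjusted p = 0.167) in surface fish. The DESeq2 interaction was -4.41 ± 1.24 (SE, adjusted p = 0.0352) with all libraries and -4.77 ± 1.11 (SE, adjusted p = 0.00457) without cave young 1. ENSAMXG00000037290 had 0.523, 1.75, 1.29 and 0.685 CPM in aged cavefish, against 0.17, 0.556, 4.48 and 0.635 CPM in young cavefish, and 7.81, 12.7, 3.72 and 16.4 CPM in aged surface fish, against 2.47, 0.717, 3.78 and 1.44 CPM in young surface fish. It was opposite to its fall in muscle in surface fish, with 1 crossing between surface aged 7 and young 3, at 2.05 ± 0.64 (SE, adjusted p = 0.0493) by DESeq2.

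ENSAMXG00000030367 had 9.8, 0, 0 and 0 CPM in aged cavefish, against 0, 0, 0.121 and 0 CPM in young cavefish, and 0, 0, 0 and 0 CPM in aged surface fish, against 7.83, 7.79, 9.95 and 5.66 CPM in young surface fish. In surface fish it had 0 counts in the 4 aged and 314 in the 4 young hearts, at least 30.9-fold lower in aged heart against a floor of 3 counts per library (DESeq2 adjusted p = 1.04e-12, edgeR adjusted p = 0.0251). The median of the falls in surface heart was -0.03 also with this gene at its bound. In cavefish it was detected in 1 aged heart and, with 1 count, in 1 young heart.

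The age change in heart differed between the populations, by the DESeq2 interaction, in 5 of 69 members with an adjusted p, beside 1.57% of all genes, and in 3 of 72 without cave young 1, beside 1.39%. Of the 5, ENSAMXG00000020572 and plcd3a are given above, and ENSAMXG00000030367 has no fold that can be read because of its libraries at 0. slc38a3b had 9.28, 7.23, 7.64 and 0.96 CPM in aged cavefish, against 12.4, 12.1, 10.7 and 21.7 CPM in young cavefish, and 18.9, 19.7, 70.8 and 11.3 CPM in aged surface fish, against 1.13, 10.6, 6.07 and 10.8 CPM in young surface fish. All aged surface hearts exceeded all young ones and all aged cave hearts were below all young ones, and the DESeq2 interaction was -4.41 ± 1.15 (SE, adjusted p = 0.0170), or -3.4 ± 1.05 (adjusted p = 0.0654) without cave young 1. In liver, surface aged 7 held 360 CPM of slc38a3b and the other libraries 6.64 to 26.5 CPM. Liver-specific genes took 5.03% of counts in surface aged heart 7, the highest heart for this gene, and their part in its interaction was not tested. ENSAMXG00000018617 had an interaction of -9.86 ± 2.33 (DESeq2 adjusted p = 0.00599) with all libraries and of -5.39 ± 2.3 (adjusted p = 0.257) without cave young 1.

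The gene of atrogin-1 was not called in heart. fbxo32 had 49.9, 17.1, 23.6 and 19.5 CPM in aged cavefish, against 0.17, 22.8, 30.7 and 62.5 CPM in young cavefish, and 20, 8.76, 28.3 and 4.6 CPM in aged surface fish, against 6.69, 3.58, 10.8 and 5.88 CPM in young surface fish. The ages overlapped in both populations, and the DESeq2 log2 fold change was -0.08 ± 0.9 (SE, adjusted p = 0.993) in cavefish, -0.47 ± 0.53 (SE, adjusted p = 0.933) without cave young 1 and 1.05 ± 0.64 (SE, adjusted p = 0.463) in surface fish. ulk1a, slc43a2a, leap2, GTPBP2 and tp73 were not called in heart of either population, with log2 fold changes of -0.71, 0.06, -1.45, -0.04 and 0.53 in cavefish. Without cave young 1 these were -0.35, -0.32, -0.7, -0.12 and 0.27, and in surface fish they were 0.98, -0.68, 1.57, 0.4 and -0.86.

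In brain, gut and liver the members gave 30 calls with age by DESeq2 over both populations. Cave gut had 3 calls, beside 5.3% of all genes called in either direction, and surface gut 11, beside 9.84%. Cave brain had 3, beside 2.27%, and surface brain 3, beside 6.46%. Cave liver had 3, beside 1.91%, and surface liver 7, beside 5.02%. edgeR called 5 members in these tissues, all in surface gut (2 rises higher and 3 falls lower), beside 2.03% of all genes there. In each other group it called 0 members and 8 to 17 had an unadjusted p under 0.05, beside 0.296% of all genes called in cave brain, 2.18% in surface brain, 0.726% in surface liver and 0% in cave gut and cave liver. By the DESeq2 interaction the age change differed between the populations in 2 of 68 members in brain, beside 4.17% of all genes, in 1 of 74 in gut, beside 1.54%, and in 0 of 64 in liver (14 with an unadjusted p under 0.05), beside 1.46%.

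Of the 73 members with an adjusted p by DESeq2 in surface gut, 7 falls were called lower and none higher, while 3 rises were called higher and 1 lower. Over all genes in surface gut 9.84% were called in either direction. The shares by direction are not given, so nothing is read from this split. The median log2 fold change of the falls there was -0.74, beside -0.04 over all genes, and in surface liver it was -0.62, beside 0.02. In cave gut and cave liver it was -0.16 and 0.01.

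fbxo32 was also lower in aged surface gut. It had 1.37, 0.999, 2.74 and 25.6 CPM in aged and 21.3, 8.05, 6.29 and 8.03 CPM in young cave gut, and 0.479, 0.346 and 0.675 CPM in aged and 4.37, 12.2, 17 and 9.31 CPM in young surface gut. All 3 aged surface libraries were below all young ones, at -4.33 ± 0.66 (SE, adjusted p = 1.83e-08) on the log2 scale by DESeq2, whereas cave aged 8 was the highest cave library. In brain the age change of fbxo32 differed between the populations (interaction 1.39, DESeq2 adjusted p = 0.0158), with 7.61, 9.46 and 8.89 CPM in aged and 7.26, 7.3, 5.68 and 3.99 CPM in young cave brain, and 3.22, 2.58, 2.34 and 3.28 CPM in aged and 5.73, 4.37, 7.01 and 4.44 CPM in young surface brain.

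slc43a2a had 1.97, 1.94, 6.8 and 7.92 CPM in aged surface fish, against 468, 7.46, 353 and 25.9 CPM in young surface fish, in liver, where it was lower in aged fish (-5.1 ± 0.93 SE, DESeq2 adjusted p = 8.70e-06). Surface aged 8 and young 2 crossed. DNAJA4, a rise in muscle, was lower in aged cave liver, at 6.5, 1.94, 6.6 and 2.66 CPM in aged and 58.4, 39.4, 12 and 14 CPM in young fish (-2.9 ± 0.81 SE, DESeq2 adjusted p = 0.0259), with no overlap in CPM. TMM factors were 0.71 to 0.95 in aged and 0.67 to 1.83 in young cave liver, and overlap after that scaling was not examined. The call was kept under 7 alternatives and lost under 3.

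ENSAMXG00000010192 differed in direction between the populations in gut. It had 2.09, 0.833, 2.1 and 2.42 CPM in aged and 0, 0.0719, 0 and 0 CPM in young cave gut, and 24.7, 4.43 and 3.29 CPM in aged and 26.7, 143, 53.4 and 110.2 CPM in young surface gut. The cave ratio rested on 83 counts in aged and 1 in young libraries (85.2, 95% counting interval 14.9 to 3406), and the surface log2 fold change was -2.95 ± 0.72 (SE, adjusted p = 0.00152) by DESeq2. Aged lay above young in every cave library and below young in every surface library, and the interaction was 9.17 (DESeq2 adjusted p = 7.50e-08).

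The labels do not say whether libraries of different tissues came from the same fish, so calls in several tissues may not be independent. In 2 or more of the tissues other than muscle, 7 members were called in the same direction in at least 1 population by DESeq2. They were 3 rises (ENSAMXG00000010192, ENSAMXG00000019242 and ENSAMXG00000036050) and 4 falls (ENSAMXG00000010535, ENSAMXG00000020866, ENSAMXG00000030367 and ENSAMXG00000037702). Of these, ENSAMXG00000010192 was also called in the opposite direction, lower in aged surface gut. The 3 rises were among 13 with an adjusted p in 2 or more of these tissues, beside 2.24% of all such genes called higher, and the 4 falls among 64, beside 1.1% called lower. ENSAMXG00000019242 was higher in aged cave brain (0.87), cave gut (2.76), cave liver (1.6) and surface gut (3.75) on the log2 scale, and was not called in heart (1.07 in cavefish with cave young 1 included and 0.03 in surface fish). In surface gut it had 78.3, 564 and 78.9 CPM in aged and 22.8, 24.6, 9.97 and 19.8 CPM in young libraries, which did not overlap. ENSAMXG00000030367 was called lower in aged brain, gut, heart and liver of surface fish and in none of these in cavefish. It rested on few counts in surface brain (3 in aged and 61 in young libraries) and surface gut (8 and 215). Young cavefish held 0 counts in brain, 4 in gut, 1 in heart and 5 in liver, too few for a fall to be read. ENSAMXG00000036050 was higher in aged surface gut (2.81) and surface liver (2.00). ENSAMXG00000010535 was lower in aged surface gut (-1.5) and surface liver (-2.27). ENSAMXG00000020866 rested on few counts, with 2, 3, 1 and 2 in aged and 5, 15, 44 and 4 in young surface brain. The 44 lay in surface young 3, where muscle-specific genes took 0.275% of counts, beside a median of 0.0441% over brain libraries. In surface liver it had 0 counts in aged and 56 in young libraries, 42 of them in surface young 2. The part of muscle content in its brain call was not tested.

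The members' levels in muscle were also compared between the populations, in the same libraries by which they were chosen. With age as a term over the 16 libraries, DESeq2 called 10 members, 3 higher in cavefish, beside 3.13% of all genes, and 7 lower in cavefish, beside 3.22%. edgeR called 3 of them, beside 3.53% of all genes, and DESeq2 called 4 members without cave young 1, 5 without cave aged 7 and 6 without surface young 4 or surface aged 6. For the fits with a library left out the share of all genes called is not given, and nothing is read from these counts of members. Higher in cavefish were leap2 (1.57 ± 0.48 SE, DESeq2 adjusted p = 0.0257), ENSAMXG00000006876 (1.2 ± 0.39 SE, DESeq2 adjusted p = 0.0374) and ENSAMXG00000017894 (0.56 ± 0.18 SE, DESeq2 adjusted p = 0.0282), as DESeq2 log2 fold changes of cave over surface. The largest lower ones were ENSAMXG00000043407 (-2.02 ± 0.48 SE, DESeq2 adjusted p = 0.0015), ENSAMXG00000018634 (-2.0 ± 0.62 SE, DESeq2 adjusted p = 0.0263) and ENSAMXG00000032943 (-1.67 ± 0.46 SE, DESeq2 adjusted p = 0.00885), and the 1 rise among the 10, ENSAMXG00000036050, was lower at -1.47 ± 0.36 (SE, adjusted p = 0.00223). ENSAMXG00000018634 averaged 5.51 CPM in muscle and 605 CPM in brain, and the part of other tissue in its muscle level was not tested. fbxo32, ulk1a, the transporters and the heat shock members were not called.

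The 15 pathway lists held 578 names, of which 110 were matched and 97 distinct genes had at least 5 CPM in muscle. Beyond the breakdown list, 14 lists held no member, among them contractile proteins, extracellular matrix, the circadian clock, oxidative phosphorylation, glycolysis, lipid metabolism, antioxidants and DNA repair. Lists were matched by name, and only 12 members have a symbol. Few names were matched on some lists, such as 2 of 43 for DNA repair, 3 of 30 for fast and 1 of 19 for slow contractile proteins. An empty list therefore does not show that a pathway is absent from the members. Of the 95 that are no members, DESeq2 called 0 in either direction in aged cave muscle (22 with an unadjusted p under 0.05), beside 0.489% of all genes called higher and 0.196% called lower, and 3 higher, beside 2.22%, and 4 lower, beside 2.26%, in aged surface muscle. In cavefish heart it called 0 higher and 0 lower (10 with an unadjusted p under 0.05), beside 0.148% and 0.0221% of all genes. Without cave young 1 it called 1 higher, beside 0.39%, and 1 lower, beside 0.267%. In surface heart it called 9 higher, beside 1.67%, and 2 lower, beside 1.17%. The 13 lists of markers of other cell types held no member, and 0 to 4 of the names on each were matched.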

How the data were processed

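Poly(A) RNA, per the labels, came from brain, gut, heart, liver and muscle of aged and young cavefish and surface fish. Reads were aligned by the authors with STAR, according to the methods, to the Astyanax mexicanus 2.0 genome. The deposited values are raw counts per Ensembl gene, 1 table per tissue, which are not normalised and were used as deposited. CPM was the count times 1e+06 over the column sum, with a pseudocount of 1 on the log2 scale. Age was tested per tissue and population with DESeq2 1.42.0 (R 4.3.3), as in the study, and beside it with edgeR 4.0.16 quasi-likelihood fits, with Benjamini-Hochberg adjustment over all genes and a threshold of 0.05. The population contrast in muscle had age as a term, and interactions were fitted over both populations of a tissue. Every library was left out in turn, and the alternatives in scaling, filter, pseudocount and test are given in the closing section. Counting intervals are exact at 95% and, like the floor of 3 counts per library, cover counting error only. Of 114 library pairs compared by chi-square none agreed within sampling noise. Not every pair of libraries was compared, so duplicates among the other pairs were not tested. Samples were grouped by the labels, and columns were matched to samples by name. Gene symbols came from the study's supplementary gene tables and named 2079 of 19076 identifiers. Genes named are the leading rises and falls, members on a list, members called in heart, in 2 or more other tissues or with the largest population differences, and those next to the threshold. Members, lists and rules were chosen with earlier results of these data known. Kit strandedness is not given in the sources used here, so genes overlapping on opposite strands cannot be told apart.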

Additional observations from a re-analysis of the deposited data

Results flagged for a closer look

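In the groups of 4 libraries, the highest or lowest library stood apart from the other 3 in 20 of 120 groups examined. The threshold passes about 1 in 20 groups only for independent, normally distributed values. Several groups here are CPM near 0 and some members vary together, so the count is a description and is not set against chance. In muscle, gut-specific genes took 0.745% of counts in cave aged 7 and liver-specific genes 0.459% in surface aged 5, each the highest of its group. In heart, liver-specific genes took 78.7% in cave young 1 and 1.84% in surface young 4, and the median log2(CPM + 1) of the falls was lowest in cave young 1, at 1.68.

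Surface aged 8 was the high library of the aged surface muscle group for fbxo32 (134 CPM), slc43a2a (359.8 CPM), GTPBP2 (144 CPM) and plcd3a (6.61 CPM). Surface aged 5 was the high one for ENSAMXG00000010099 (56.4 CPM) and ENSAMXG00000030367 (3.43 CPM), surface young 2 for ENSAMXG00000010099 (201 CPM), surface young 1 for ENSAMXG00000006876 (112 CPM) and cave young 3 for ENSAMXG00000010192 (0.760 CPM). In heart, cave young 3 was high for plcd3a (104 CPM), ENSAMXG00000037290 (4.48 CPM) and ENSAMXG00000030367 (0.121 CPM), cave young 2 for ENSAMXG00000013414 (1.33 CPM), cave young 4 for ENSAMXG00000010192 (0.254 CPM) and cave aged 5 for ENSAMXG00000030367 (9.80 CPM).

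The age change differed between cavefish and surface fish by a DESeq2 interaction in 8 cases, 5 of 69 members with an adjusted p in heart, beside 1.57% of all genes, 2 of 68 in brain, beside 4.17%, and 1 of 74 in gut, beside 1.54%. In heart the log2 difference of cave over surface aging was 2.94 for ENSAMXG00000020572 (adjusted p = 0.00791), -4.41 for plcd3a (adjusted p = 0.0352), -4.41 for slc38a3b (adjusted p = 0.0170) and -9.86 for ENSAMXG00000018617 (adjusted p = 0.00599) in DESeq2. Without cave young 1 these were, in the same order, 2.61 (adjusted p = 2.24e-04), -4.77 (adjusted p = 0.00457), -3.40 (adjusted p = 0.0654) and -5.39 ± 2.30 (SE, adjusted p = 0.257) in DESeq2. The high hearts for ENSAMXG00000018617 were surface aged 7 and 8 and cave young 1, and the part of their liver content was not tested. For ENSAMXG00000030367 the fitted value of 28.6 (DESeq2 adjusted p = 5.53e-09) is set by libraries at 0 and gives no size. In brain it was 1.39 for fbxo32 (adjusted p = 0.0158) and -2.61 for ENSAMXG00000037702 (adjusted p = 0.0476), and in gut 9.17 for ENSAMXG00000010192 (adjusted p = 7.50e-08) in DESeq2.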

How the results depend on the processing

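Alternatives that combine a setting with the removal of cave young heart 1, changes relative to all genes and interactions were chosen after seeing the data. Apart from edgeR on all libraries and DESeq2 without cave young heart 1, the share of all genes called is not given for these alternatives. A change in their counts therefore cannot be told from a change over all genes. Members called with age in surface heart numbered 3 by DESeq2 and 1 by edgeR, and 2 to 6 with 1 library left out (6 without surface young 4, 5 without surface aged 8). In cavefish heart there were 3, and 0 by edgeR with or without cave young 1. With libraries left out the count ran from 1 (without cave aged 6, 7 or 8) to 11 (without cave young 1 and 2). It was 5 without cave young 2 and 6 without cave young 1, where TMM size factors, no independent filtering and a mean of at least 10 counts each also gave 6. DNAJA4, called there without cave young 1, had -0.11 (adjusted p = 0.992, DESeq2) with it. In brain, gut and liver the 30 calls became 5 by edgeR, all in surface gut, and 26 to 36 with a library left out. For cave against surface in muscle the 10 calls became 3 by edgeR, 5 in young and 2 in aged libraries alone, and 4 to 9 with a library left out (4 without cave young 1, 5 without cave aged 7, 6 without surface young 4 or surface aged 6). With the replicate number as a block there were 14. Whether the numbers pair the samples cannot be told. Same-numbered libraries correlated at -0.38 to 0.87, with 4 of 8 pairs over 0.1, and 2 surface libraries fitted their own number best. Interactions in heart numbered 5, beside 1.57% of all genes, and 3 without cave young 1, beside 1.39%. Members moving in cavefish heart as in muscle numbered 29, 44 under TMM, 54 relative to all genes, 52 without cave young 1 (49 relative to all genes), and 24 to 52 with 1 library left out; in surface heart 30 to 45. The rule kept 38 members under TMM, 52 with a minimum of 20 CPM, 50 by medians, 71 with a pseudocount of 0.5, 61 with one of 5, 71 with a minimum of 1 CPM and 41 to 71 with a library left out (41 without surface aged 5, 46 without cave aged 5, 49 without surface young 1, 52 without cave aged 7). Of 710 alternative values of 49 fold changes called by DESeq2 (3 more had no adjusted p), 347 with a library left out and 158 under other settings kept direction and side of the threshold, 150 and 54 kept direction alone, and 1, the DNAJA4 value above, reversed. The causes of these differences were not tested.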
